A study of Mus musculus with 8 samples.

Results

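Iguratimod treatment of experimental autoimmune encephalomyelitis (EAE) was described in mice deficient in connexin 47 (Cx47), by setting 1 array of iguratimod-treated EAE against 1 array of untreated EAE. These were 2 of the 8 arrays of the series, taken by their titles, and both lay on the same slide. Both arrays held RNA of Cx47-deficient mice with EAE, on a C57Bl/6J background. The source of the RNA was labelled as astrocyte and the tissue as spinal cord. The series title describes the knockout as conditional and specific to oligodendroglia. The driver of the deletion, the dose and timing of iguratimod, the age of the mice, their number per array and the way the cells were isolated were not given in the sources used here. The other arrays served for reference: a naive and a chronic EAE array of Cx47-deficient mice, and naive, untreated EAE, iguratimod-treated EAE and chronic EAE arrays of wild-type (WT) mice. Every group had 1 array, so no difference has a replicate check and none was tested.

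EAE is the mouse model of multiple sclerosis, in which myelin-directed T cells enter the spinal cord, recruit monocytes and neutrophils, and turn astrocytes reactive. Cx47 is the gap junction protein through which oligodendrocytes couple to astrocytes. Iguratimod is an anti-rheumatic small molecule described as lowering NF-kB activity and prostaglandin and cytokine production and as binding the cytokine MIF. The comparison addresses how the transcripts of a spinal cord preparation with EAE differed when mice without this connexin had received the compound.

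Levels are log2 signals relative to the 75th percentile of the array, so that a level of 0 is the 75th percentile and a difference of 1 is 2-fold. Probes that rose clear of background (the scanner's well-above-background flag) on the untreated array, the iguratimod array or both were kept, and 24034 genes were compared. The flag was set for 65.5% of spots on the untreated array and 62.6% on the iguratimod array, within the range of 59.7% to 72.0% over the series. The 2 chronic arrays, from a separate slide, had a median local background of 57 and 58 against 73 to 82 elsewhere. They also differed in Xist, the transcript of the silenced X chromosome, which was well above background on both of them and on none of the other 6 arrays, so they serve here as reference levels only. The error measured within the arrays was small: over 299 probes printed 10 times each, the median SD of the log2 difference was 0.0468, and the 95th percentile was 0.0767. This SD covers spots and not animals.

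All 17 astrocyte markers were well above background on both arrays. So were all 18 myelin and oligodendrocyte genes, all 16 neuronal and synaptic genes and all 12 homeostatic microglia genes. Fewer cells of a type and less RNA per cell cannot be told apart in such material.

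With iguratimod, transcripts of neutrophils and of endothelial cells, the reactive astrocyte gene Lcn2 and many dim transcripts were lower. Immediate early genes were higher. Of the 24034 genes, 859 were at least 2-fold lower (3.57%) and 79 at least 2-fold higher (0.329%), so that 8.42% of the 2-fold differences were upward. That share was 26.8% after quantile normalization and 27.5% when arrays were centred on their medians, which gave 196 higher and 536 lower genes and 204 higher and 539 lower genes. Median centring placed the median of all genes at 0.21, against -0.00075 with the 75th percentile. The distribution of differences reached further below 0 than above it, with a 5th percentile of -0.86 and a 95th percentile of 0.43.

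**Figure D1:**
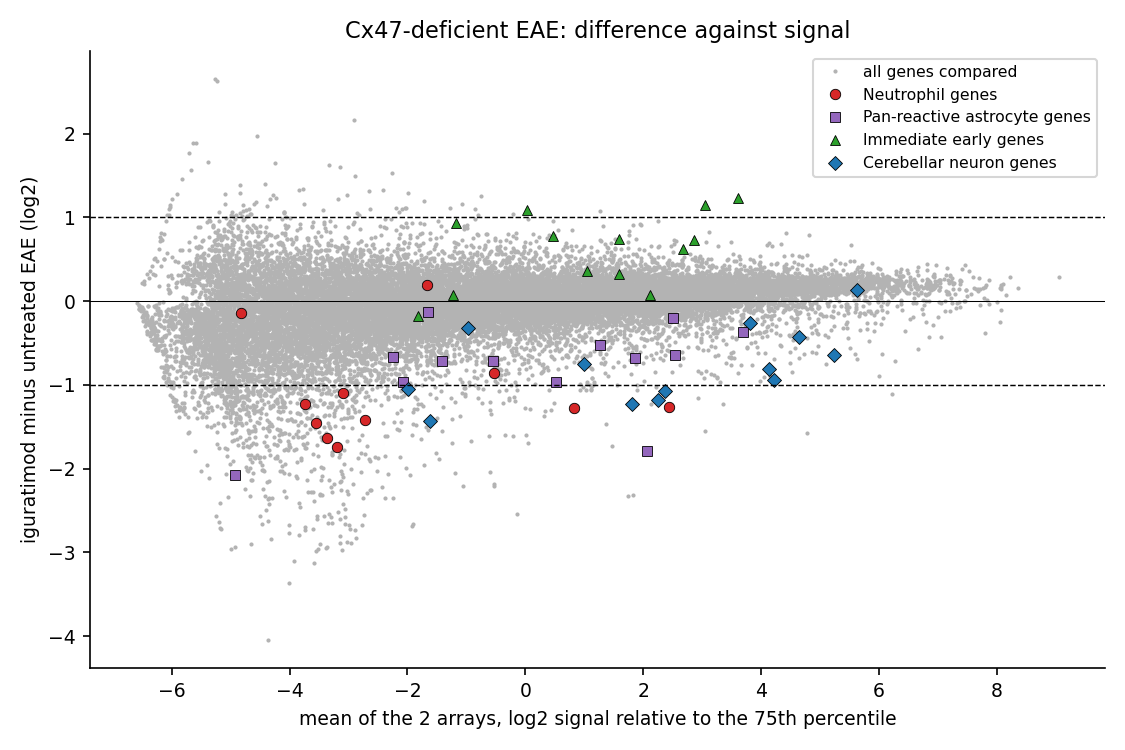
Difference between the iguratimod and the untreated EAE array of Cx47-deficient mice (log2, vertical axis) against the mean of the 2 arrays (log2 signal relative to the 75th percentile, horizontal axis), 1 point per gene, with dim values raised to the lowest signal well above background when the difference was taken. Dashed lines mark 2-fold, and the cloud widens downward among dim genes, where neutrophil genes (red) also lie, while the immediate early genes Nr4a1 and Arc stand out at 1.23 and 1.15 among bright genes.

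The 2-fold genes were mostly dim. Of the 859 lower genes, 445 had a mean signal of less than -4, and another 307 lay from -4 to -2. The median difference shifted with brightness, from -0.27 in the 4286 genes of the dimmest class to 0.12 in the 4960 genes of the brightest. After quantile normalization the medians of the 5 classes lay between 0.01 and 0.04. On the iguratimod array 307 of the 859 were not well above background, and 552 were measured on both arrays. Among the 10059 genes with a mean above the 75th percentile, 35 were 2-fold lower and 4 were 2-fold higher. The 4 higher ones were Nr4a1, Arc and Egr2, which are immediate early genes, and Lbhd2.

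Of 12 neutrophil genes 11 were compared, and 8 of these were at least 2-fold lower with iguratimod, with a list median of -1.26. The difference was below 0 for 10 of the 11. Over all genes 3.57% were 2-fold lower, and among genes with a mean from -4 to -2, where several members lie, 6.33%. Neutrophils are the first phagocytes to enter inflamed tissue, and their granule proteins mark the cells in bulk RNA. S100a9, a calprotectin subunit, read -0.62 on the naive Cx47-deficient array, 3.07 with untreated EAE, 1.81 with iguratimod and 0.78 in chronic EAE. S100a8, its partner, read -2.37, 1.47, 0.20 and -0.84 on the same 4 arrays. For both subunits the iguratimod array lay between the naive and the untreated EAE array, with differences of -1.26 and -1.27. The granule genes had dimmer probes. Mpo, the myeloperoxidase gene, went from -2.33 to -4.07, a difference of -1.74. Ngp, which encodes a granule protein, went from -2.54 to -4.17, a difference of -1.64. Retnlg, a resistin-like gene of granulocytes, differed by -1.45, and Ltf, the lactoferrin gene, by -1.42. Mmp8, a neutrophil collagenase gene, differed by -1.23 and Ly6g, the surface marker used to sort mouse neutrophils, by -1.09. The cathelicidin gene Camp stayed within 2-fold at -0.86.

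The other two members stayed near 0. Mmp9, a gelatinase gene that other cells also transcribe, differed by -0.14 and Elane, the neutrophil elastase gene, by 0.19. The size of the list's difference depended on the background correction. With normexp correction and its added offset of 50, the median was -0.78 and 2 members, S100a8 and S100a9, were 2-fold lower; with quantile normalization it was -1.23 and 7 members. In the WT pair the list had a median of 0.05, with none of 11 members past 2-fold. S100a9 read 2.49 with untreated EAE and 2.33 with iguratimod there, and S100a8 read 0.63 and 0.79. That the genotypes differ was not tested.

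The sequences before the start sites of 2 of these granule genes are shown because both members were 2-fold lower and both held a match to the C/EBP motif ATTGCNCAA, which is bound by factors of granulocyte maturation. They are 250 bases on the gene's strand from RefSeq (GRCm38.p6), with the match on either strand in capitals; Ngp lies at chr9:110419558-110419807 and Ltf at chr9:111019042-111019291, both on the + strand.
Ngp: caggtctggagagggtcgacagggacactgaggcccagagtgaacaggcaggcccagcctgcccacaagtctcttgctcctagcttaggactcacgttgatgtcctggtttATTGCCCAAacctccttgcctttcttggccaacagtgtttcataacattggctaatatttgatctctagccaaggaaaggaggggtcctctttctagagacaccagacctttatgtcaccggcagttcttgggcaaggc
Ltf: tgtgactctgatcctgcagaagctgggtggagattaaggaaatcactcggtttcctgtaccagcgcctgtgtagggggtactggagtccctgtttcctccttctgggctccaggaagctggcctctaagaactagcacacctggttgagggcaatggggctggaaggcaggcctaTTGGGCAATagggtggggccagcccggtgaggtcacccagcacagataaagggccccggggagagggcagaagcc
The match began 139 bases before the start of Ngp and 75 bases before that of Ltf. Of the 10 neutrophil genes with a window, 2 held the motif in any window, and 0.539% of 32851 single mouse windows of this length did. A match is a description of letters and not of a bound site, and the motif was chosen after the windows had been read.

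All 13 pan-reactive astrocyte genes were below 0, with a median difference of -0.67, and 2 of them were 2-fold lower (1 with normexp, Lcn2), against 3.57% of all genes. These genes are switched on in astrocytes by many kinds of injury. Lcn2, which encodes the iron-scavenging lipocalin 2 and is also made by neutrophils, read -3.68 on the naive array, 2.96 with untreated EAE, 1.18 with iguratimod and -1.93 in chronic EAE. Its difference of -1.79 was the lowest among genes of known symbol with a mean above the 75th percentile, and its 2 probes gave -2.26 and -1.79. Steap4, a metalloreductase gene, was at least 4.22-fold lower, from -3.36; it was well above background on the untreated Cx47-deficient EAE array and on none of the 7 others, and was compared through that array alone. Cd44, a hyaluronan receptor gene, differed by -0.97 and Timp1, an inhibitor of matrix proteases, by -0.96. Cxcl10, a T cell attracting chemokine, read 2.20 without and 1.52 with iguratimod. Gfap, the intermediate filament gene of astrocytes, read 2.41 on the naive array, 3.87 with untreated EAE and 3.51 with iguratimod, a difference of -0.37. In WT mice the list had a median of -0.62, with Lcn2 at -0.58, Timp1 at -0.91 and Gfap at -0.66.

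Genes assigned to the A1 and A2 reactive states had medians of -0.38 and -0.44. Of the 11 A2 genes compared 2 were 2-fold lower (1 with normexp), against 3.57% of all genes. Ptx3, a soluble pattern recognition gene, was not well above background with iguratimod, which bounds its difference at -1.94 or lower. It was compared through the untreated array alone. Tm4sf1, a membrane protein gene that endothelial cells also transcribe, went from 1.09 to -0.21, a difference of -1.30. Both lists held the same direction under every alternative run, with ranges of -0.38 to -0.17 and -0.54 to -0.22.

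Complement genes leaned the same way. All 16 were below 0 and the median was -0.41. The 1 that was 2-fold lower is set against 3.57% of all genes and 6.33% at its brightness. With normexp none was, 15 were below 0, and the median was -0.23. C1s1, a protease of the C1 complex, went from -2.18 to -3.69, a difference of -1.51. C3, the central component, read -1.06 on the naive array, 3.40 with untreated EAE and 2.55 with iguratimod, a difference of -0.85. Serping1, the C1 inhibitor gene, differed by -0.83 and the receptor gene C5ar1 by -0.69. The C1q chains, which microglia make, differed little: C1qa by -0.04 and C1qb by -0.10. C4b, of the classical pathway, differed by -0.11. In WT mice the same chains were lower with iguratimod, C1qa by -0.86 and C1qb by -0.77, and the list had a median of -0.79.

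**Figure D2:**
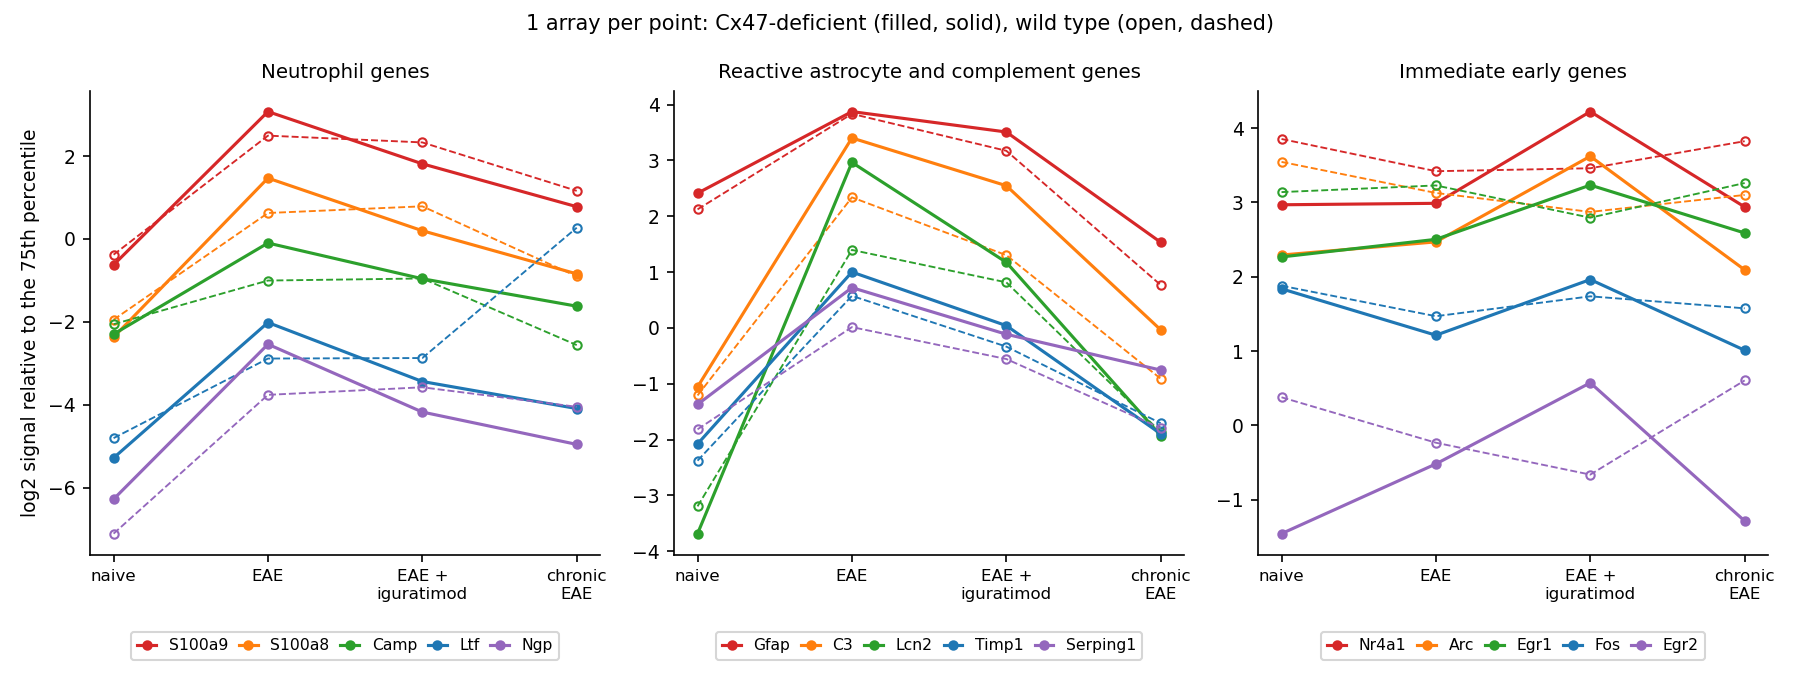
Level of 15 genes (log2 signal relative to the 75th percentile, vertical axis) on the 4 arrays of each genotype (horizontal axis), 1 array per point, filled with solid lines for Cx47-deficient and open with dashed lines for WT mice. In Cx47-deficient mice the neutrophil and reactive genes on the iguratimod array lie below untreated EAE and above naive, while Nr4a1 (4.22) and Arc (3.62) are higher on the iguratimod array than on any other array of that genotype.

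Vessel genes were lower as a group. All 14 endothelial genes were below 0, with a median of -0.82, and 5 were 2-fold lower. Over all genes 50.1% were below 0 and 3.57% were 2-fold lower, which also holds as the background of the pericyte and fibroblast counts given here. Slco1a4, an organic anion transporter of the blood-brain barrier, went from -0.54 to -1.94, a difference of -1.41. Tek, the angiopoietin receptor gene, differed by -1.33. Vwf, the von Willebrand factor gene, read -3.97 on the naive array, 0.01 with untreated EAE and -1.20 with iguratimod. Cdh5 and Cldn5, which encode the junction proteins VE-cadherin and claudin 5, differed by -1.12 and -1.03. The endothelial range over the alternatives was -0.89 to -0.60, and with normexp 2 genes were 2-fold lower. The WT pair gave a median of -0.47 for the same list, with 14 of 14 below 0 and Vwf at -1.04. Pericyte genes had a median of -0.49 with 1 of 10 at 2-fold, the G protein signalling regulator Rgs5 at -1.14, and a normexp median of -0.22. Fibroblast and matrix genes had a median of -0.65 with 1 of 12 at 2-fold, the transporter Slc6a13 at -1.07. Meninges and vessel walls carry these genes, and how much of such tissue each preparation held was not tested.

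Monocyte and macrophage genes had a median of -0.53 (-0.35 with normexp), and 12 of 13 were below 0, against 50.1% of all genes. The 1 that was 2-fold lower, against 3.57% of all genes, was Chil3, a chitinase-like gene of myeloid cells. It read -5.07 on the naive array, 2.34 with untreated EAE, 0.61 with iguratimod and -3.70 in chronic EAE. The next members were F10 at -0.76, Ly6c2 at -0.67 and Arg1 at -0.64. Ly6c2 read -0.93 on the naive array, 3.79 with untreated EAE and 3.12 with iguratimod. Ly6c1, a member of the endothelial list, read -0.57, 3.88 and 3.12. Whether the 2 probes share signal was not tested. Ccr2, the receptor by which inflammatory monocytes leave the blood, differed by -0.64. Genes of resident microglia differed less, with a median of 0.06 over 12 homeostatic genes and -0.16 over 14 disease-associated genes, the latter turning to 0.06 with median centring. P2ry12, a purine receptor of resting microglia, went from 0.59 to 0.44. Of the 14 disease-associated genes 12 were below 0, against 50.1% of all genes, and 14 were after quantile normalization. Gpnmb differed by -0.67, Lgals3 by -0.66 and Clec7a by -0.45. Trem2, a lipid receptor gene and 1 of the 2 above 0, went from 3.18 to 3.23.

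Transcripts of T cells and of the interferon response stayed near their untreated level. The 15 T and NK cell genes compared had a median of -0.08 (0.13 with median centring), and none was past 2-fold. The T cell receptor chain gene Cd3g read -7.47 on the naive array, -2.15 with untreated EAE and -2.22 with iguratimod, and Gzmb, a cytotoxic granule protease gene, went from -3.63 to -3.56. The regulatory T cell factor Foxp3 went from -4.75 to a signal not well above background. The 20 antiviral interferon-stimulated genes had a median of 0.14, with 15 above 0 and a range over alternatives of 0.10 to 0.35. Oas2 differed by 0.37, Ifi27l2a by 0.32 and Mx1 by 0.30. Genes induced by interferon gamma lay a little lower: the GTPase list had a median of -0.34 with 13 of 14 below 0, led by Gbp4 at -0.63 and Iigp1 at -0.62. The MHC class II list had a median of -0.27 with 9 of 10 below 0. With median centring these medians were -0.13 and -0.063. H2-Ab1, a class II chain gene, read -1.75 on the naive array, 4.85 with untreated EAE and 4.30 with iguratimod.

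The WT pair read lower in these lists. There T and NK cell genes had a median of -0.84 with all 14 below 0, and antiviral genes a median of -0.73 with all 20 below 0. The class II median was -0.94 and the CC chemokine median -0.90, against -0.27 for CC chemokines in Cx47-deficient mice (0.05 with no filter on dim probes). Ccl2, a monocyte attractant, differed by -0.57 in Cx47-deficient and by -1.03 in WT mice; Ccl4, a T cell and macrophage attractant, by 0.46 and by -1.14. Ido1, the interferon-induced enzyme that opens the kynurenine pathway, differed by 0.68 and by -1.82. These are differences between single arrays, and the contrast between the genotypes was not tested.

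**Figure D3:**
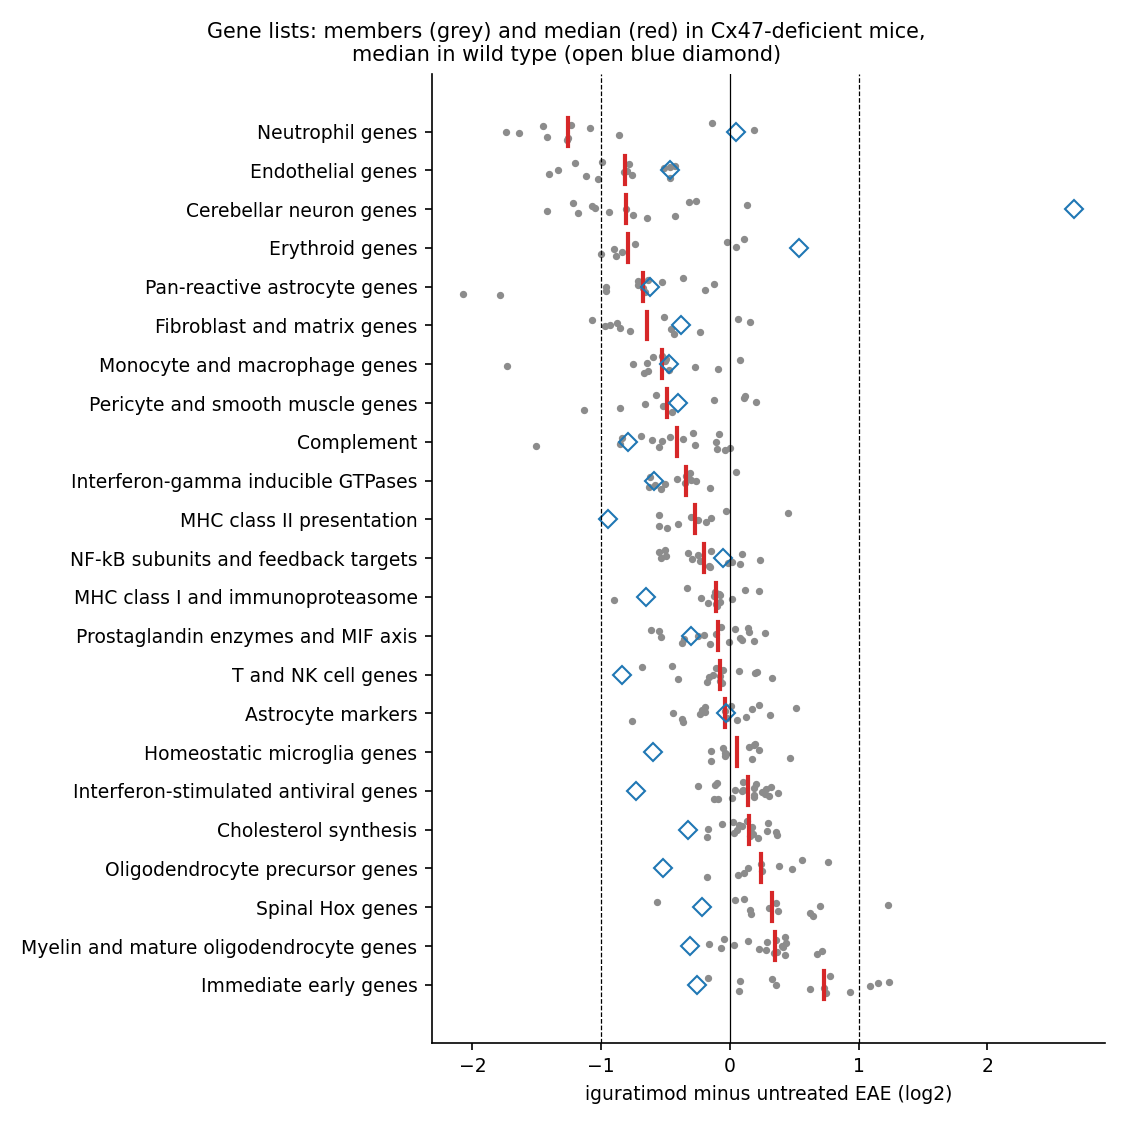
Difference between the iguratimod and the untreated EAE array (log2, horizontal axis) for the members of 23 gene lists in Cx47-deficient mice (grey points), with the list median (red bar) and the median of the same list in WT mice (open blue diamond). Dashed lines mark 2-fold; neutrophil genes have medians of -1.26 and 0.05, T and NK cell genes of -0.08 and -0.84, and cerebellar neuron genes of -0.81 and 2.67.

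The genes tied to the described action of iguratimod showed small differences. None of the 16 NF-kB subunits and feedback targets was past 2-fold, and their median of -0.20 became 0.01 with median centring. Nfkb1 went from 0.68 to 0.53 (3 probes, from -0.91 to -0.15), a direction that median centring turned. The feedback inhibitor genes Nfkbiz and Nfkbia differed by -0.53 and -0.23. Among 18 genes of prostaglandin synthesis and of the MIF axis the median was -0.09 (0.12 with median centring), again with none past 2-fold. Ptgs2, the inducible cyclooxygenase gene, went from -2.52 to -2.89, and Mif from 5.16 to 5.43. Cxcr4 and Cd74, which encode receptors of MIF, differed by -0.61 and -0.55. Of 16 proinflammatory cytokine genes 12 were compared, with a median of -0.10 (0.017 with quantile normalization) and none past 2-fold. Their differences ran from -0.63 to 0.37. Il1b was not well above background on the naive array and read -1.45 with untreated EAE and -1.77 with iguratimod. Its difference was -0.32, and its 2 kept probes were at -0.32 and 0.05. Tnf differed by 0.13, with its 2 probes at -0.36 and 0.13 and a mean of the probes below 0. Il6 differed by -0.03, a direction that turned under normexp, quantile normalization, median centring and the authors' processed values.

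Among the 52 lists the median was highest, at 0.73, for immediate early genes. Of the 13, 12 were above 0 and 3 were 2-fold higher, against 0.329% of all genes. Neurons and glia transcribe these genes within minutes of activity or growth factor signals. Nr4a1, a nuclear receptor gene, read 2.97 on the naive array, 2.99 with untreated EAE, 4.22 with iguratimod and 2.94 in chronic EAE. Arc, a synaptic regulator gene, read 2.29, 2.47, 3.62 and 2.09 on the same arrays. Egr2, a zinc finger factor that Schwann cells also use, read -1.46, -0.52, 0.57 and -1.29. For all 3 genes the iguratimod array was higher than the other Cx47-deficient arrays. Fosb differed by 0.93, the activity-dependent neuronal factor Npas4 by 0.77, Fos by 0.75 and Egr1 by 0.73. Atf3, a stress factor, was the member below 0, at -0.17. The range of the list over the alternatives was 0.64 to 0.94, and 3 members were 2-fold higher with normexp and with quantile normalization as well. In WT mice the median was -0.26, with Nr4a1 at 0.04, Arc at -0.26 and Egr2 at -0.43. The untreated Cx47-deficient array was lower for these 3 genes than the untreated WT array, where they read 3.42, 3.13 and -0.23. They read 3.85, 3.54 and 0.38 on the naive WT array and 3.82, 3.10 and 0.61 on the chronic WT array. Egr2 was thus higher on the chronic WT array than on the Cx47-deficient iguratimod array.

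The windows before Nr4a1 and Egr2 are shown because both genes were 2-fold higher and both held several copies of TGACG, the core of the cAMP response element through which CREB acts on immediate early genes. They are 250 bases on the + strand from RefSeq (GRCm38.p6), at chr15:101266596-101266845 and chr10:67537619-67537868, with TGACG or its reverse complement in capitals.
Nr4a1: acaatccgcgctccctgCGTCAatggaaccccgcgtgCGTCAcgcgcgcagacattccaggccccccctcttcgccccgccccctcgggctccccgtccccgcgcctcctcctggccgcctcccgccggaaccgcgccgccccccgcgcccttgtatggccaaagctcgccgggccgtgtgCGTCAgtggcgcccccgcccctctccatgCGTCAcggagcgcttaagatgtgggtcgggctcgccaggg
Egr2: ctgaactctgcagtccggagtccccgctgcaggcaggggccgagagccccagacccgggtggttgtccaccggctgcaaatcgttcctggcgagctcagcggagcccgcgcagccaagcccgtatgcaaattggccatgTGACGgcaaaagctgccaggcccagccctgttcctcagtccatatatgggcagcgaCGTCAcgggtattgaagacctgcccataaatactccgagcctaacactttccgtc
Nr4a1 held 4 matches, which began 233, 213, 69 and 40 bases before its start, and the Egr2 window shown held 2, at 111 and 55 bases. Egr2 has 5 windows in the table, of which 3 held the motif. Of the 9 immediate early genes with a window, 8 held at least 1 match, and 17.8% of the 32851 windows did. A gene was counted when any of its windows matched, and the share is of single windows, so the units differ. Arc had no window in the table. These counts describe letters in the windows and were made after the differences were known.

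Myelin transcripts lay above their untreated level. Of 18 myelin and mature oligodendrocyte genes 15 were above 0, with a median of 0.35 and none past 2-fold. Over all genes 50.1% were below 0, and all genes with a mean level above 2, like much of this list, had a median of 0.12. After quantile normalization 15 of the 18 were above 0 and the list median was 0.23. Mobp, which encodes a myelin-associated protein of oligodendrocytes, read 4.12 on the naive array, 3.13 with untreated EAE and 3.84 with iguratimod. Mbp, the myelin basic protein gene, read 5.66, 5.19 and 5.87. For Mobp the iguratimod array lay between untreated EAE and naive, and for Mbp it lay above both. The probes of Mbp gave 0.09 to 0.67 and those of Mobp 0.33 to 0.71, so the size differs between transcript regions. The median over oligodendrocyte precursor genes was 0.24, and 9 of 10 were above 0, among them Enpp6, an early differentiation gene, at 0.76. In WT mice these medians were -0.31 and -0.52. The direction of both lists was the same under all alternatives run, with ranges of 0.23 to 0.56 and 0.20 to 0.45.

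Astrocyte markers showed no common direction, with 7 of 17 above 0 and a median of -0.04 that became 0.18 with median centring. Aqp4, the water channel of astrocyte endfeet, read 2.24 with iguratimod and differed by -0.76, although its probes ran from -0.80 to 0.12. Fabp7, a fatty acid binding protein gene of immature astrocytes, went from 3.55 to 4.06. Among the connexins, Gja1, the main astrocyte connexin, differed by -0.44 with probes from -0.44 to 0.48. Gjb6, another astrocyte connexin, differed by -0.20, and Gjb1, the second oligodendrocyte connexin, by 0.44. With median centring Gjb6 was above 0. For cholesterol synthesis the median was 0.14 and 15 of 18 genes were above 0, while 50.1% of all genes were below 0. Bright genes as a whole lay above 0, with a median of 0.04 at a mean level of 0 to 2 and 0.12 above 2. After quantile normalization the cholesterol list had a median of 0.088 with 12 above 0. In WT mice its median was -0.33.

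Genes that mark spinal cord position and output also lay higher. Of 12 Hox genes of trunk segments 11 were above 0, with a median of 0.33. The other, Hoxc10, was at -0.56, and 50.1% of all genes were below 0. Hoxc8 was 2-fold higher, against 0.329% of all genes, going from -3.79 to -2.56. With normexp its difference was 0.77 and no Hox gene was 2-fold higher. Hoxc6 differed by 0.70. Over motor neuron genes the median was 0.45, and 6 of 7 were above 0. Ribosomal and respiratory chain genes, which serve as a reference, were above 0 in 16 of 16 cases each, with medians of 0.19 and 0.25. After quantile normalization 13 and 14 were above 0, and the medians were 0.037 and 0.11.

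Genes higher on the untreated EAE than on the naive array of WT mice, neither of which is part of the comparison, were also examined. There 247 genes (1.11% of 22314) were at least 4-fold higher in untreated EAE. In the Cx47-deficient pair their median difference was -0.28, and 197 of them (79.8%) were below 0, against 50.1% of all genes. The 2-fold lower ones numbered 16 (6.48%, against 3.57% of all genes). Beside Lcn2, Chil3, C1s1, S100a8, S100a9, Vwf and Cldn5 these included Slc38a5, an amino acid transporter of brain vessels, at -1.34, and Icam2, an endothelial adhesion molecule, at -1.22. Sox18, an endothelial transcription factor, differed by -1.19 and Pglyrp1, a peptidoglycan receptor of neutrophil granules, by -1.16. Scgb3a1, a secretoglobin gene, differed by -1.58. The 4 that were 2-fold higher were the water channel Aqp1 (2.04-fold), the transcription factor gene Tbx21 (2.14-fold), the ammonium transporter Rhcg (2.40-fold) and Klhl30 (2.16-fold). Tbx21 serves T helper cells and is also transcribed in olfactory bulb neurons. Other genes of the olfactory bulb among the 247, picked after their values were seen, were above 0 as well: Nmb at 0.96, Doc2g at 0.91, Sp8 at 0.85, Cdhr1 at 0.79 and S100a5 at 0.76. Their part in the result was not tested. With median centring the median of the 247 was -0.067, and with normexp 8 were 2-fold lower.

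By the rule for single genes, which asked for 2-fold also after normexp and for agreement among probes, 8 higher and 57 lower genes of known symbol were eligible. Beside Nr4a1, Arc, Egr2 and Rhcg the higher ones were Cox8b, a muscle isoform of a cytochrome oxidase subunit, at 1.53, Lbhd2 at 1.08, and Zp3r and Olfr1087. Zp3r, a sperm protein gene, was at least 6.30-fold higher and Olfr1087, an olfactory receptor gene, at least 6.20-fold higher, and neither was well above background on any of the 7 other arrays. Such signals on a single array were 15 of the 79 higher and 16 of the 859 lower genes.

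The 14 lower genes that the rule named included no member of the inflammatory lists. Ssty1, a Y-linked spermatid gene, went from -2.03 to -5.15, with its 2 probes at -3.13 and -0.89, and was not well above background on either chronic array. Vmn1r197, a vomeronasal receptor gene, was at least 8.62-fold lower. Dsg1c, a desmosome gene of skin, differed by -2.97, Duox2, a thyroid oxidase gene, by -2.90, Adamtsl3 by -2.80 and Wfdc6b by -2.74. Wfdc6a differed by -2.70, Oxct2b, a testis enzyme gene, by -2.68, Kif12 by -2.67 and Papln by -2.52. Dsg1c read -1.31 on the naive array, -1.63 with untreated EAE, -4.60 with iguratimod and -0.21 in chronic EAE, and on the WT arrays -4.14, not well above background, -2.75 and -0.08. The other four were not well above background with iguratimod. Fancd2, a DNA repair gene, was at least 7.43-fold lower, Lrrc8e at least 6.57-fold, Hoxb13 at least 6.21-fold and Pramel11 at least 5.92-fold.

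The median level of the 859 lower genes was -3.22 on the naive array, -3.19 with untreated EAE, -4.83 with iguratimod and -2.44 in chronic EAE. On the WT arrays in the same order it was -4.22, -5.11, -3.97 and -2.42. The order of the untreated and iguratimod arrays of Cx47-deficient mice is fixed by the choice of these genes. Among the WT arrays, which the choice did not use, the untreated EAE array had the lowest median. Probes named only by a noncoding genomic region made up 17.7% of the lower genes and 9.26% of all genes. Probe GC content had a median of 43.3% in the lower, the higher and all genes.

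In WT mice the difference with iguratimod ran the other way for many of these genes. There 694 of 22473 genes were 2-fold higher (3.09%) and 267 lower (1.19%). The genes lower in Cx47-deficient and higher in WT mice numbered 283, which was 32.9% of the former and 40.8% of the latter. Lower in both were 11 genes, 1.28% and 4.12% of the lists of lower genes, and 1 was higher in both. Across the 22473 genes, which are not independent of each other, Pearson's r between the 2 differences was -0.40 and Spearman's rho -0.24.

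**Figure D4:**
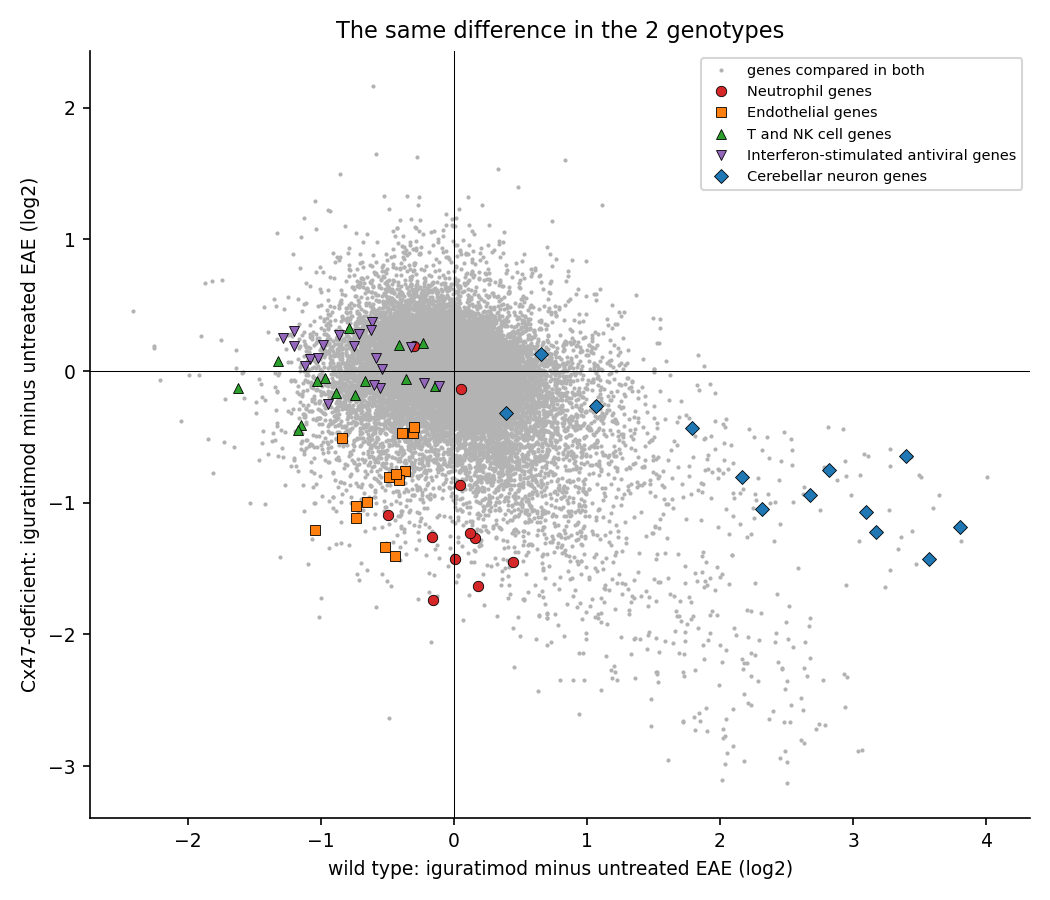
Difference between iguratimod and untreated EAE in Cx47-deficient mice (log2, vertical axis) against the same difference in WT mice (log2, horizontal axis) for genes compared in both, 1 point per gene, with 5 lists coloured. A tail of genes runs to the lower right, where cerebellar neuron genes (blue, medians of -0.81 and 2.67) lie, while endothelial genes (orange) are below 0 on both axes.

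Genes of cerebellar neurons moved with this pattern, on arrays labelled spinal cord. All 13 were well above background on both arrays, and their median difference was -0.81. With iguratimod 12 were below 0 and 5 were 2-fold lower, against 50.1% and 3.57% of all genes. In WT mice all 13 were above 0 and 11 were 2-fold higher, against 3.09% of all genes there. Gabra6, a receptor subunit of cerebellar granule cells, read 3.97 on the naive array, 2.84 with untreated EAE, 1.66 with iguratimod and 3.07 in chronic EAE, and on the WT arrays 1.80, -0.25, 3.55 and 2.31. Cbln3, a granule cell gene, differed by -1.43, En2, a midbrain and hindbrain factor, by -1.22 and Neurod1 by -1.07. The median level of the list was 2.91 with untreated EAE and 1.83 with iguratimod in Cx47-deficient mice, and 0.52 and 3.62 in WT mice. Striatal neuron genes had a median of 0.18 in Cx47-deficient and of -1.52 in WT mice. Choroid plexus genes had medians of -0.62 and 0.25, and genes of red cells -0.79 (-0.22 with normexp) and 0.54. The part of tissue composition in the differences of the other genes was not tested.

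**Figure D5:**
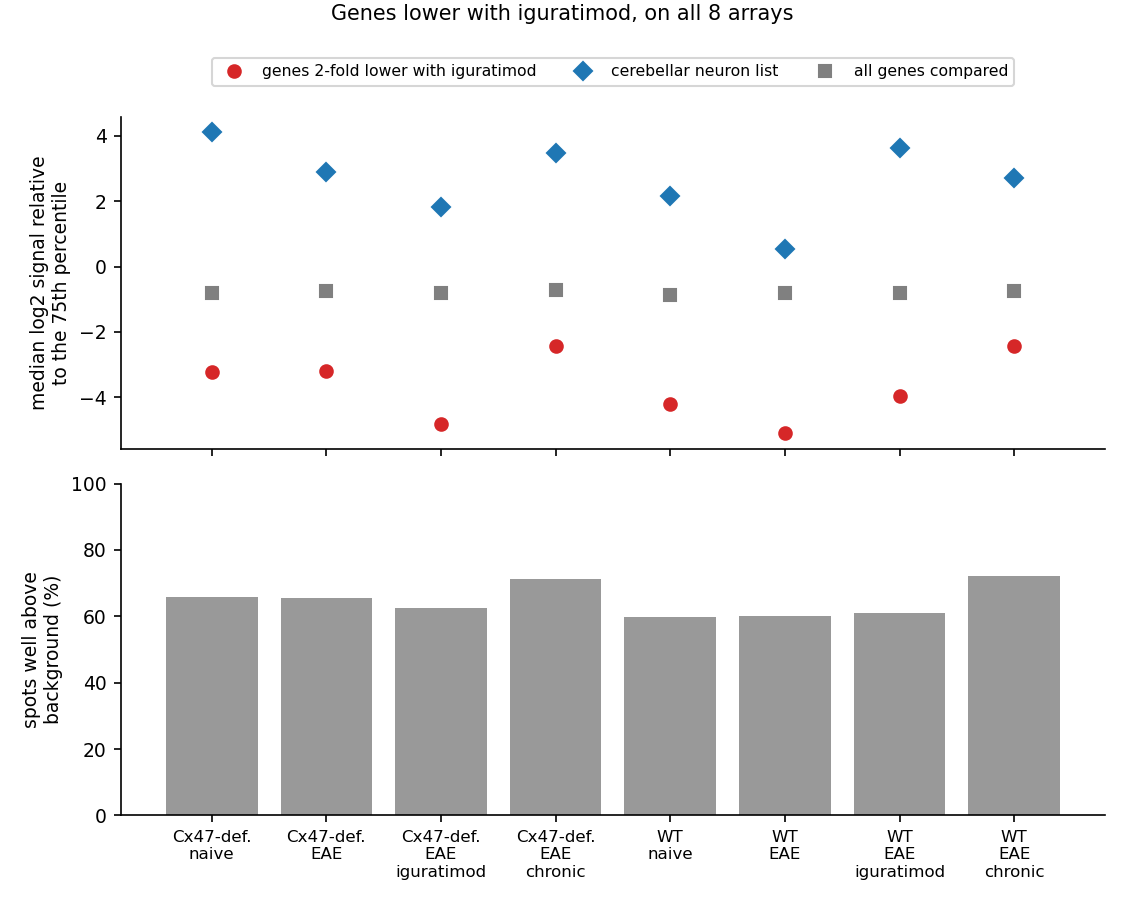
Upper panel: median level (log2 signal relative to the 75th percentile, vertical axis) of the 859 genes 2-fold lower with iguratimod (red), of the cerebellar neuron list (blue) and of all genes compared (grey) on each of the 8 arrays (horizontal axis). Lower panel: share of spots well above background on each array (%); the lower genes have medians of -3.19 and -4.83 on the 2 arrays compared, where 65.5% and 62.6% of spots were well above background.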

How the data were processed

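Total RNA (TRIzol, then a column kit) was amplified and labelled with a low-input kit, per the labels' protocols. Scanner files deposited for each array give intensity per spot. The scanner software was Agilent Feature Extraction, with version 10.7.1.1 in the file headers but 9.5.1.1 among the submitters' processing notes, which was not resolved. The processed signal had background and spatial trend subtracted, per the file headers. The authors' processed table, an intensity per probe on a linear scale, served as an alternative. Flags (0 or 1) were used as deposited.

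The intensity was put on a log2 scale minus the percentile 75 over spots that are not controls (59305 of 62976). Outlier spots were left out, spots of a probe averaged, and dim values lifted to the array's lowest signal that was well above background, which gives a bound (at least N-fold). A gene was its kept probe with the highest mean over the 8 arrays. Of 56605 probes, 32994 were named by accession in the RefSeq table of GRCm38.p6, 10224 by symbol, 520 by synonym, and 12867 kept the file's name; antisense and overlapping transcripts were not separated. Differences were taken with Python 3.11.15, pandas 2.3.3 and numpy 2.4.6, normexp with limma 3.58.1 in R 4.3.3 (offset 50), and the procedure was tested on simulated data.

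With 1 array a side no test was run, and the number of arrays limits the precision. Named were up to 14 rises and 14 falls that were 2-fold also after normexp with all probes of one sign, up to 4 members of each list discussed, and Gfap, Gja1, Gjb6, Il6, Il1b, Tnf, Mif, Ptgs2 and Nfkb1; other names were chosen after their values were seen. Some genes that the rule names are not reported here. The members and the 52 lists were chosen with earlier results of these data known. Promoter windows of 250 bases were matched for 10 of 11 genes sought. Alternatives covered background correction, normalization, filters on dim probes, probe choice and fold thresholds.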

Additional observations from a re-analysis of the deposited data

Results flagged for a closer look

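Among the 52 lists and the genes that the rule named, the difference with iguratimod had opposite signs in the 2 genotypes in 12 cases. Both medians were at least 0.5 from 0 for lists, and both differences at least 1 from 0 for genes. With 1 pair of arrays per genotype the contrast was not tested. The 12 cases were 2 gene lists and 10 of the lower genes that the rule named. Over all genes compared in both genotypes, 283 were 2-fold lower in Cx47-deficient and 2-fold higher in WT mice, and 5 the reverse. Cerebellar neuron genes had a median of -0.81 in Cx47-deficient and 2.67 in WT mice, and genes of red cells -0.79 and 0.54. Ssty1 differed by -3.13 and 2.50, Vmn1r197 by -3.11 (a bound) and 2.02, Dsg1c by -2.97 and 2.51, and Duox2 by -2.90 and 2.05. Adamtsl3 differed by -2.80 and 2.61, Wfdc6b by -2.74 and 1.90, Wfdc6a by -2.70 and 1.48, Oxct2b by -2.68 and 2.74, Kif12 by -2.67 and 2.52, and Papln by -2.52 and 2.21. In WT mice all 10 of these genes were below background on the untreated array, so their WT values are lower bounds.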

How the results depend on the processing

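The direction of the excess of lower over higher genes was the same under all alternatives run, and its size was not. Against 79 higher and 859 lower genes (8.42% higher), normexp gave 9 and 163 (5.23%), quantile normalization 196 and 536 (26.8%), median centring 204 and 539 (27.5%), and the authors' processed values 180 and 516 (25.9%). Requiring both arrays above background gave 49 and 553. Without raising dim values there were 181 and 1413 (11.4%). A 1.5-fold threshold gave 532 and 2392 (18.2%) and a 3-fold threshold 11 and 259 (4.07%). No filter on dim probes, the mean of a gene's probes and keeping outlier spots changed no count by over 1.5 times. The median of the 247 genes higher in WT EAE was -0.22 with normexp and -0.067 with median centring, and with normexp 8 of them were 2-fold lower against 16. Fancd2 turned to 0.055 with no filter, where another probe stood for it. Among 281 values of single genes under alternatives, 154 moved by less than the spot SD, 126 moved by more and 1 (Fancd2) reversed; 9 changed sign, in 6 genes; among 468 list medians 307 and 161, with 25 changes of sign in 18 lists. Median centring, which lifts the median of all genes to 0.21, turned most of these lists. Signal over background limits the dim genes: 30 higher and 307 lower genes were dim on 1 side. No paired analysis was possible because each group has 1 array.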

Other observations

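Several genes outside the lists, picked after their values were seen and with no fixed list behind them, were 2-fold higher with iguratimod. After normexp each of those named in this paragraph was under 2-fold, from 0.48 for Slc6a2 to 0.99 for Nkx2-9. Tph2, the serotonin synthesis enzyme of raphe neurons, went from -3.38 to -2.33, and was not well above background on the naive Cx47-deficient array. Slc6a4, the serotonin transporter gene, went from -3.63 to -2.14, although its 2 probes disagreed in sign. Slc6a2, the noradrenaline transporter gene, was at least 2.10-fold higher. The factors Nkx2-9, Shox2, Evx1 and Otp, which pattern ventral spinal cord, hindbrain and hypothalamus, differed by 1.33, 1.32, 1.09 and 1.06. In WT mice these 4 genes differed by 0.10, -0.26, -0.43 and -0.26.

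Of 14 genes of the unfolded protein and heat shock response 11 were above 0, with a median of 0.20 and a lowest value of -0.48. Over all genes 50.1% were below 0, and genes with a mean level above 2 had a median of 0.12. After quantile normalization 10 of the 14 were above 0, with a median of 0.11. Hspa1b was at 0.91 and Hspa1a at 0.61, and these near-identical copies may share signal. Hspb1, a heat shock gene that is also on the pan-reactive list, was below 0. Crtam, a T and NK cell receptor gene, went from 2.11 to 0.64 and from -0.96 to 2.51 in WT mice. The cerebellar gene Gabra6 went from 2.84 to 1.66 and from -0.25 to 3.55 in WT mice. The T and NK cell list had medians of -0.08 and, in WT mice, -0.84. Where the Crtam signal came from was not tested. Gpx3, a secreted glutathione peroxidase gene, and Igfbp7, a vessel matrix gene, were both bright and 2-fold lower. Saa3, an acute phase gene, went from 2.06 to 1.44. Of 99 genes with several kept probes that were past 2-fold, 23 had probes of opposite sign.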
